A study of Mus musculus with 4 samples.

Results

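Probe sets for genes that mark fibroblasts and other mesenchymal cells were followed on arrays of SIN1 knock-out and wild type mouse cells. The 13 probe sets stand for 10 genes and were taken by their probe set numbers from the 45037 probe sets tested. The rule that lists them uses no measured value, but it was drawn up with earlier results of these data known. They cover Pdgfra (3 probe sets), Vim (2 probe sets), Pdgfrb, Thy1, Ly6a, Cd34, S100a4, Twist1 and Cdh2, with the epithelial gene Cdh1 as a contrast. The deposited table gives no gene names, so each name comes from the list that supplied the number, and no annotation was at hand to check it.

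The groups were SIN1 KO cells (2 arrays), in which the gene for SIN1 is ablated, and wild type cells (2 arrays). SIN1, encoded by Mapkap1, is a subunit of mTOR complex 2, the kinase complex that phosphorylates AKT. All cells were of the C57BL/6 strain and grown in DMEM, and the labels call them both MEFs and murine epithelial fibroblasts. The labels name no lines, cultures or embryos behind the arrays, so every spread and test below measures these arrays only, and that spread may be technical. Mapkap1 itself was not analysed here.

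Fibroblasts are the cells that build and maintain connective tissue. They are recognised by a combination of markers rather than by any single gene: receptors for platelet-derived growth factor (PDGF), surface glycoproteins, the filament protein vimentin and the absence of epithelial junction proteins. The same genes are read in studies of the epithelial to mesenchymal transition, in which E-cadherin gives way to N-cadherin under transcription factors such as Twist1.

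Promoter sequence was at hand for 5 of the 10 genes, in a RefSeq table of build GRCm38.p6. The 250 bases before the annotated start are printed for the 4 of these that were above background on at least 1 array, since their levels ran from steady over the arrays (Vim) to uneven (S100a4, Twist1, Pdgfra). Each is the plus strand, 5′ to 3′. Capitals mark TATAAA (the letters of the TATA box, at any position) and CANNTG (the E-box, the element that Twist1 and related factors bind). Each was searched on both strands.
S100a4, chr3:90603520-90603769: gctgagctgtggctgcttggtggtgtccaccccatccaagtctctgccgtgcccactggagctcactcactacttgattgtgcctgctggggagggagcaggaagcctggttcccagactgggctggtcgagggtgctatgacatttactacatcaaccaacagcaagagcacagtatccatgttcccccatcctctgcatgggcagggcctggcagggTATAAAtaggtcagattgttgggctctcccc
Twist1, chr12:33957421-33957670: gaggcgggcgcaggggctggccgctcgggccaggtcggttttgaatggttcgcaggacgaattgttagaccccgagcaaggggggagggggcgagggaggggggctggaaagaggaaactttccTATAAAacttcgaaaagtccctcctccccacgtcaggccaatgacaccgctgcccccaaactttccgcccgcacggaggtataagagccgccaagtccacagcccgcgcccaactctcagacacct
Vim, chr2:13574061-13574310: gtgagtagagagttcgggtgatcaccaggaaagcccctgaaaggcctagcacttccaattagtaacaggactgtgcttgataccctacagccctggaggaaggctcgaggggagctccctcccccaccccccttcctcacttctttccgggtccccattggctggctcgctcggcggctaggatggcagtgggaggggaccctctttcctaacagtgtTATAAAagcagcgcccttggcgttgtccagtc
Pdgfra, chr5:75152001-75152250: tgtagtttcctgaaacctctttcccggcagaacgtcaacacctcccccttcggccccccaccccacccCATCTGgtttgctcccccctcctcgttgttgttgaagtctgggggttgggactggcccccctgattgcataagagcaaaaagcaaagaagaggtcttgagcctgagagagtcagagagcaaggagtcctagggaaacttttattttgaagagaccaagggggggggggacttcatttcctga

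TATAAA began 31 bases before the start in S100a4, 32 bases before it in Vim and 126 bases before it in Twist1, and these letters were not in the Pdgfra window. Pdgfra held 1 E-box, beginning 182 bases before the start. Of the 32851 promoter windows in the table, 12.4% held TATAAA and 66.2% held CANNTG. These matches are descriptions of the letters alone.

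Values are the deposited log2 values, on which a step of 1 is a doubling. Background on an array was taken as the highest of its 27 Bacillus subtilis control probe sets, 3.75 and 4.27 on SIN1 KO 1 and 2, against 4.05 and 3.91 on wild type 1 and 2. Over all tested probe sets the arrays of different genotypes correlated with Pearson r from 0.904 to 0.971, and those of the same genotype with 0.958 (SIN1 KO) and 0.955 (wild type). The closest pair, SIN1 KO 1 with wild type 1, and the most distant, SIN1 KO 2 with wild type 2, both crossed the genotypes. Of the 13 probe sets, 9 and 8 were above background on SIN1 KO 1 and 2, against 7 and 8 on wild type 1 and 2. Of all tested probe sets, 43.5% and 49.5% were at background on SIN1 KO 1 and 2, and 46.8% and 44.5% on wild type 1 and 2. The rest were above it, so being above background is not particular to these markers.

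**Figure D1:**
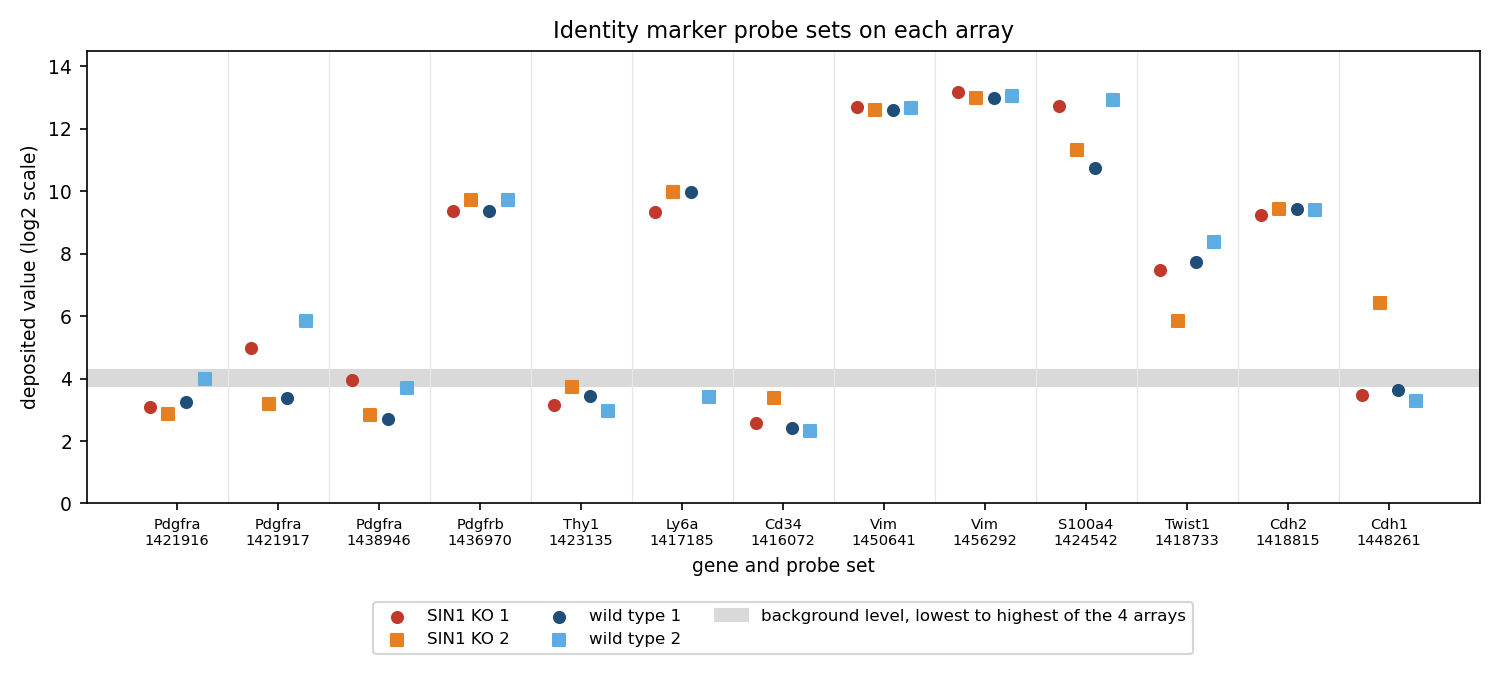
Deposited log2 value (vertical axis) of each of the 13 probe sets on the 4 arrays, SIN1 KO left of wild type, with the grey band spanning the background levels of the arrays (3.75 to 4.27). Both Vim probe sets, Pdgfrb, Cdh2, S100a4 and Twist1 lie above the band on every array, whereas Ly6a lies below it on wild type 2 and Cdh1 lies above it on SIN1 KO 2 only.

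The question was whether cells without SIN1 differ from wild type cells in their fibroblast markers. None of the 13 probe sets separated the genotypes in limma's test: 0 passed an adjusted p of 0.05 (0% of all 45037 tested did), 0 passed an unadjusted one (5.57% of all did), and their adjusted p lay between 0.820 and 0.998. Vim, Pdgfrb and Cdh2 varied least. Ly6a, Cdh1, Twist1, S100a4 and a Pdgfra probe set differed by more than 2 log2 units between the lowest and highest array. At 4 of these 5 the genotypes overlapped, Twist1 being the exception. The fit had 2 residual degrees of freedom, so the intervals are wide.

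The PDGF receptors are receptor tyrosine kinases that carry growth and migration signals to mesenchymal cells, Pdgfra being typical of fibroblasts and Pdgfrb of fibroblasts and pericytes. Pdgfrb (1436970_A_AT) measured 9.38 and 9.73 on the SIN1 KO arrays, against 9.38 and 9.71 on the wild type arrays. The genotypes overlapped almost exactly, and the replicate 2 arrays of both were the higher ones. The log2 difference was 0.01 (SE 0.29, 95% interval -0.77 to 0.79, limma adjusted p 0.998), and it was -0.044 after cyclic loess and 0.33 with the hybridisation controls as the scale. On the hybridisation control scale the median difference of all tested probe sets was 0.36.

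At Pdgfra, 8 of the 12 values of its 3 probe sets were at or below background. Probe set 1421917_AT measured 4.97 and 3.20 on the SIN1 KO arrays, against 3.38 and 5.85 on the wild type arrays. It was above background on SIN1 KO 1, by 2.33-fold, and on wild type 2, by 3.85-fold, and at background on the other array of each genotype. Its log2 difference of -0.53 (SE 1.06, 95% interval -3.37 to 2.30, limma adjusted p 0.922) had the opposite sign without wild type 2 (0.71) and without SIN1 KO 2 (0.35).

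Probe set 1438946_AT measured 3.97 and 2.82 on the SIN1 KO arrays, against 2.72 and 3.70 on the wild type arrays. SIN1 KO 1 and wild type 2 were again the higher arrays, although only SIN1 KO 1 passed its background, by 1.16-fold. Probe set 1421916_AT measured 3.07 and 2.87 on the SIN1 KO arrays, against 3.26 and 3.97 on the wild type arrays. Both SIN1 KO arrays were lower here, but only wild type 2 was above background, by 1.05-fold, so no fold is given (log2 difference -0.64, SE 0.35, limma adjusted p 0.820).

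Averaged over its 3 probe sets, Pdgfra was 4.004 and 2.96 on the SIN1 KO arrays, against 3.12 and 4.51 on the wild type arrays. The genotypes interleaved, with the highest and the lowest array in different genotypes. Pdgfrb, in contrast, was at least 40.4-fold above background on each of the 4 arrays.

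Thy1, Ly6a and Cd34 encode cell surface glycoproteins used to sort stromal cells: Thy1 and Ly6a (Sca-1) are anchored by a lipid, and Cd34 is a sialomucin shared with endothelial and blood progenitor cells. Thy1 (1423135_AT) measured 3.16 and 3.74 on the SIN1 KO arrays, against 3.45 and 2.96 on the wild type arrays. All 4 values lay under the background of their arrays and the genotypes overlapped. Cd34 (1416072_AT) was also at background on every array.

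Cd34 measured 2.57 and 3.39 on the SIN1 KO arrays, against 2.42 and 2.32 on the wild type arrays. Both SIN1 KO arrays were higher (log2 difference 0.61, SE 0.37, 95% interval -0.38 to 1.61, limma adjusted p 0.820), but no fold is given since neither genotype was above background. Without SIN1 KO 2 the difference was 0.20. Thy1 and Cd34 thus gave no signal above background, as defined here, in either genotype.

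Ly6a (1417185_AT) was the member with the widest spread. It measured 9.33 and 9.98 on the SIN1 KO arrays, against 9.98 and 3.41 on the wild type arrays. Wild type 2 was at background, while the other 3 arrays were at least 47.9-fold above theirs. The genotype difference of 2.96 (SE 2.24, 95% interval -3.06 to 8.98, limma adjusted p 0.821) rests on that array: without wild type 2 it was -0.32, and without wild type 1 it was 6.25.

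With each value raised to at least the background of its array, Ly6a was lower on wild type 2 than on wild type 1 by at least 6.07 log2 units. A gap of that size between the wild type arrays was found at 6 of 45037 tested probe sets, Ly6a included, or 0.0133%. All 6 were lower on wild type 2. At 4 of the 6, both SIN1 KO arrays were nearer to wild type 1 than to wild type 2. In bulk samples, fewer cells of a type and less RNA per cell cannot be told apart. Ly6a belongs to a family of similar neighbouring genes, and the probe sequences were not used here.

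**Figure D2:**
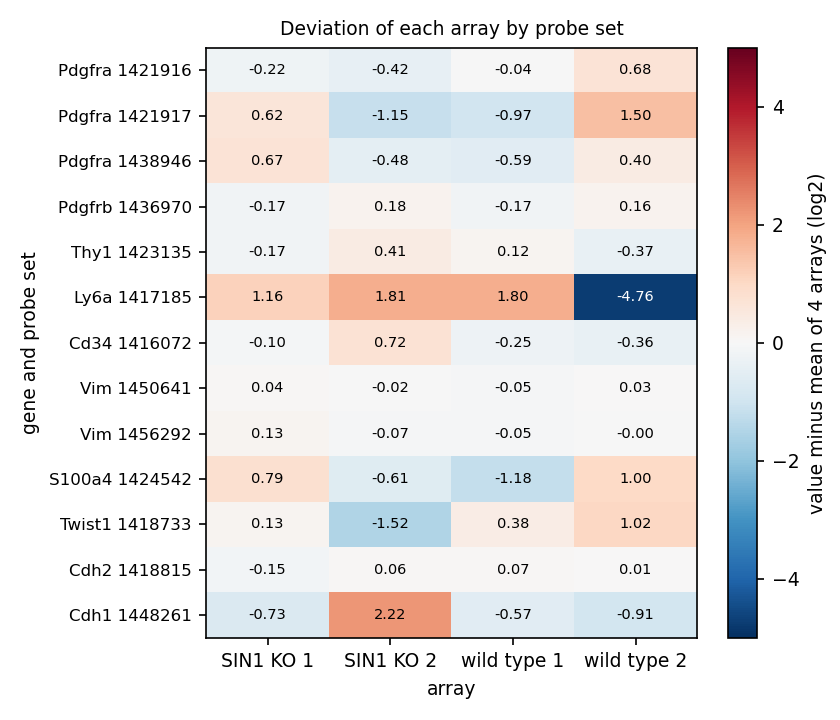
Value of each array minus the mean of the 4 arrays (log2, colour and printed number) for each probe set (rows), with SIN1 KO arrays left of wild type arrays. The strongest cells belong to single arrays, Ly6a on wild type 2 (-4.76) and Cdh1 on SIN1 KO 2 (2.22), whereas the rows of Vim, Pdgfrb and Cdh2 are nearly blank.

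Vimentin is the intermediate filament protein of mesenchymal cells, and S100a4, also known as fibroblast-specific protein, is a small calcium-binding protein. Vim was the steadiest gene of the set. Probe set 1450641_AT measured 12.69 and 12.62 on the SIN1 KO arrays, against 12.59 and 12.67 on the wild type arrays. Its 4 values lay within 0.091 log2 units, and 99.4% of all tested probe sets spread at least as much.

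The second Vim probe set, 1456292_A_AT, measured 13.17 and 12.98 on the SIN1 KO arrays, against 12.998 and 13.04 on the wild type arrays. The genotypes overlapped at both Vim probe sets. Their log2 differences were 0.02 (SE 0.24, 95% interval -0.64 to 0.68) and 0.06 (SE 0.25, 95% interval -0.62 to 0.73), with limma adjusted p of 0.994 and 0.971, and they were -0.088 and -0.058 after cyclic loess. With the hybridisation controls as the scale they were 0.34 and 0.38, and both SIN1 KO arrays were then above both wild type arrays. The median difference of all tested probe sets was 0.36 on that scale, against 0.037 as deposited, so this is not particular to Vim. Bright probe sets vary little on these arrays in general: among the 219 within 0.5 log2 units of the mean of 1450641_AT, the median spread was 0.28, and among the 174 near 1456292_A_AT it was 0.21.

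S100a4 (1424542_AT) was bright but uneven. It measured 12.72 and 11.32 on the SIN1 KO arrays, against 10.76 and 12.94 on the wild type arrays. SIN1 KO 1 and wild type 2 were the higher arrays, as at Pdgfra 1421917_AT and 1438946_AT, and the genotypes overlapped fully. The spread of 2.18 stood out at this level: of 317 probe sets within 0.5 log2 units of its mean, 0.631% spread as much.

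The genotype means of S100a4 were 12.02 ± 0.99 in SIN1 KO and 11.85 ± 1.54 in wild type (SD, n = 2 each). The log2 difference of 0.18 (SE 0.91, 95% interval -2.26 to 2.61, limma adjusted p 0.976) was smaller than the spread within either genotype. It was -0.91 without wild type 1 and -0.52 without SIN1 KO 1.

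Twist1 is a basic helix-loop-helix transcription factor of mesenchymal cells that is known to repress Cdh1. Twist1 (1418733_AT) measured 7.49 and 5.84 on the SIN1 KO arrays, against 7.74 and 8.38 on the wild type arrays. Both SIN1 KO arrays were below both wild type arrays, and Twist1 was the only member above background on all 4 arrays for which that held. The nearest arrays, SIN1 KO 1 and wild type 1, were 0.25 apart.

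The log2 difference at Twist1 was -1.40 (SE 0.64, 95% interval -3.12 to 0.33, a ratio of 0.380 of SIN1 KO to wild type), and it did not pass limma's test (adjusted p 0.820, unadjusted p 0.0901). The crossed pairing (wild type 1 with SIN1 KO 2) was chosen as a block after seeing the data. It gave an unadjusted limma p of 0.0203 and an adjusted p of 0.309. Of the alternatives that kept all arrays, it alone brought Twist1 past the unadjusted threshold, which the planned replicate block did not. The log2 difference depended largely on SIN1 KO 2: without that array it was -0.57. Without SIN1 KO 1, which leaves 1 SIN1 KO array, it was -2.22. The sign was negative under every scaling tried, from -1.08 with the hybridisation controls as the scale to -1.40 after cyclic loess, but on the hybridisation control scale the genotypes overlapped. Those controls, transcripts added before hybridisation, averaged 11.41 and 11.54 on the SIN1 KO arrays, against 11.85 and 11.73 on the wild type arrays, and the part this played was not tested.

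Cadherins join neighbouring cells: Cdh2 (N-cadherin) does so in mesenchymal and neural cells, and Cdh1 (E-cadherin) in epithelia. Cdh2 (1418815_AT) measured 9.23 and 9.44 on the SIN1 KO arrays, against 9.45 and 9.39 on the wild type arrays. The genotypes overlapped and the spread of 0.22 was exceeded or matched by 98.5% of the 1907 probe sets of similar level. The log2 difference was -0.08 (SE 0.25, 95% interval -0.76 to 0.59, limma adjusted p 0.954), but 0.24 with the hybridisation controls as the scale. The median difference of all tested probe sets was 0.36 on that scale.

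Cdh1 (1448261_AT) measured 3.47 and 6.42 on the SIN1 KO arrays, against 3.63 and 3.29 on the wild type arrays. SIN1 KO 2 alone was above background, by 4.43-fold, and the other 3 arrays were at background. No fold between the genotypes is given, since only 1 of 2 SIN1 KO arrays passed that background. The fitted log2 difference was 1.48 (SE 1.03, 95% interval -1.29 to 4.25, limma adjusted p 0.820), and without SIN1 KO 2 it was 0.0069.

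With background as the floor, the SIN1 KO arrays were at least 2.67 log2 units apart at Cdh1, and 228 of 45037 tested probe sets, or 0.506%, were as far apart. The array with Cdh1 above background, SIN1 KO 2, was also the array with the lowest Twist1 value. On the same array Cdh2 (9.44) and both Vim probe sets (12.62 and 12.98) were within the range of the other arrays or less than 0.02 below it. SIN1 KO 2 was, however, the lowest or the highest array at 9 of the 13 members, wild type 2 at 8, SIN1 KO 1 at 5 and wild type 1 at 4. Its other extremes were low values at Pdgfra 1421916_AT and 1421917_AT and Vim 1456292_A_AT, and high values at Cd34, Thy1, Ly6a and Pdgfrb. Whether the Twist1 and Cdh1 values are related was not tested.

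**Figure D3:**
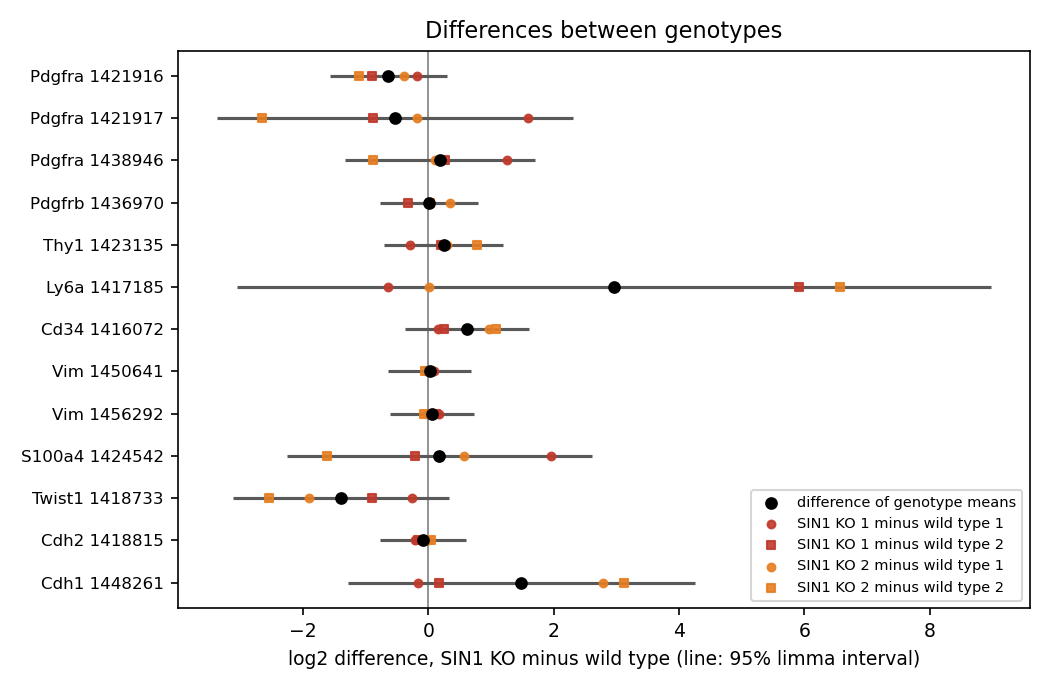
Log2 difference of SIN1 KO minus wild type for each probe set (black point, with the 95% limma interval as a line) and the differences between single arrays (coloured points). Every interval includes 0, and at Ly6a the differences against wild type 2 (5.92 and 6.57) lie far from those against wild type 1 (-0.65 and 0.0034).

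Across the 13 members the sign of the difference was positive (higher in SIN1 KO) at 9 and negative at 4, and positive at 53.9% of all tested probe sets. In 1 probe set (Cd34) both SIN1 KO arrays were above both wild type arrays, as in 20.4% of all tested, and in 2 (Twist1 and Pdgfra 1421916_AT) both were below, as in 14.9%. The 3 that did not overlap stand against 35.3% of all tested, and with 2 arrays against 2 the smallest exact two-sided permutation p is 0.33. Absolute differences of at least 1 were found at 3 of 13 (Ly6a, Cdh1 and Twist1), against 9.83% of all tested.

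The median absolute log2 difference was 0.24 over the 13 probe sets and 0.31 over all tested. The median spread over the 4 arrays was 1.10 for the 13 and 0.81 for all. The spread differed by gene: Vim, Cdh2 and Pdgfrb spread by at most 0.35, whereas Ly6a, Cdh1, Pdgfra 1421917_AT, Twist1 and S100a4 spread by 6.57, 3.13, 2.66, 2.54 and 2.18 in the deposited values, the lowest of which were at background for the first 3. Of all tested probe sets, 8.07% spread as much as S100a4.

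**Figure D4:**
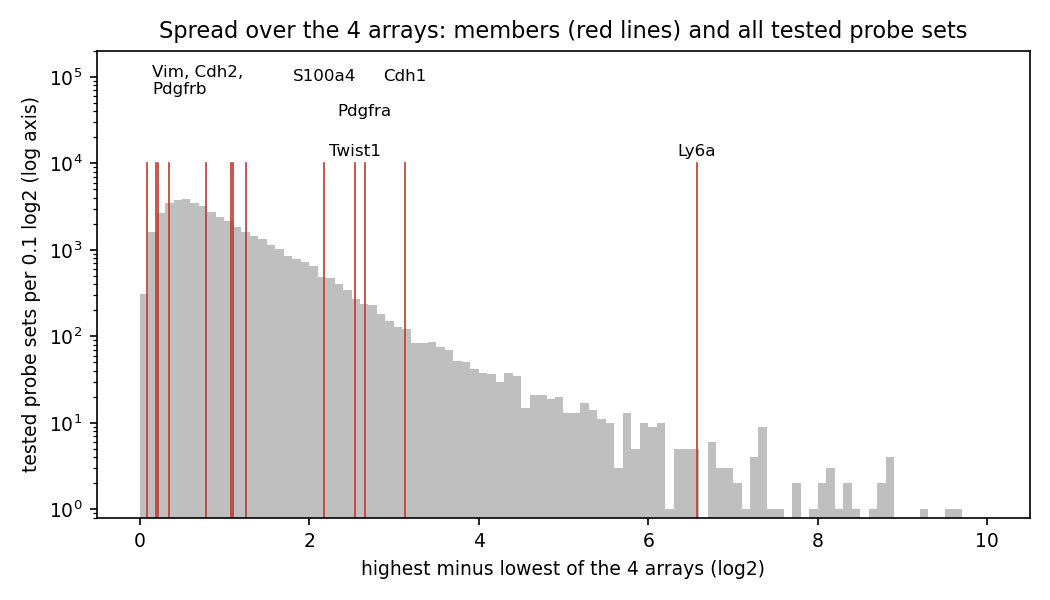
Number of tested probe sets (vertical log axis) by the highest minus the lowest of their 4 arrays (horizontal axis, log2), with a red line for each of the 13 members. Vim, Cdh2 and Pdgfrb stand at the left edge at 0.35 or less, and Ly6a stands far right at 6.57, its lowest value being at background.

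By these markers the cells of both genotypes carried the mesenchymal genes Vim, Pdgfrb, Cdh2, S100a4 and Twist1 above background on all 4 arrays and the epithelial gene Cdh1 on SIN1 KO 2 alone. Ly6a was above background on 3 of 4 arrays, and at least 1 Pdgfra probe set was above it on SIN1 KO 1 and wild type 2, by up to 3.85-fold. Thy1 and Cd34 were at background on all 4 arrays. These calls depend on the background level chosen. The highest Bacillus subtilis control other than Phe was 3.43 and 3.64 on SIN1 KO 1 and 2, against 3.52 and 3.27 on wild type 1 and 2. By that level Cdh1 was above background on all 4 arrays. Ly6a and Pdgfra 1438946_AT were then above it on wild type 2 as well, and Thy1 on SIN1 KO 2, while Cd34 stayed at background. Markers of epithelial, endothelial, mural, muscle and blood cells beyond these members, and the other genes of the PDGF, cadherin and S100 families, were not analysed here, because no table paired their probe sets with genes.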

How the data were processed

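Expression was measured on 4 arrays, 2 of SIN1 KO and 2 of wild type cells, grouped and numbered by the sample titles. The deposited table holds log2 values that the authors made with RMA, per the submitters' processing notes. RMA subtracts background, equalises the arrays and combines the probes of each probe set into 1 value. Its version and settings: not given in the sources used here. The log2 scale was inferred from the range of the values. No column was left unused (0), and no further normalization was applied.

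The 64 manufacturer controls were left out of the test. SIN1 KO minus wild type was fitted on the other 45037 probe sets by lmFit and eBayes (no trend) of limma 3.58.1, run in R 4.3.3, with Benjamini-Hochberg adjustment over all of them, a threshold of 0.05 and 95% intervals. The fit had 2 residual and 2.38 prior degrees of freedom, and the number of arrays limits precision (median SE 0.33). The fit was also run on simulated data with independent noise, which does not show how it behaves on these arrays. All 13 members were named, and the members and lists were chosen with earlier results of these data known. The planned marker lists could not be matched to probe sets. Alternatives tried were a filter on level (at or above the median), 3 scalings, 2 variance priors, a replicate block, leaving out each array, the brightest probe set per gene and another background level. Plots were made in Python 3.11.15 with matplotlib 3.10.9.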

Additional observations from a re-analysis of the deposited data

How the results depend on the processing

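With 2 arrays per genotype, only very large differences could pass, and members at background have no usable fold. No member passed the adjusted threshold (0) under any alternative that was run, but the filter on level left only 8 of the 13 to test. Over all tested probe sets the count past it was 5 with the filter on level, which tests fewer probe sets, and 0 under the other alternatives, including the replicate block and each left-out array. The deviations of arrays with the same number ran against each other (r = -0.415 across probe sets), so the numbers were not taken to pair the arrays. The crossed pairing as a block, added after seeing the data, gave 1 member (Twist1) past an unadjusted p of 0.05, against 0 as reported. That count, also added later, was 1 (Cd34) with the hybridisation controls as the scale. Neither can be judged: the share of all tested is known only for the reported fit (5.57%). Left-out arrays leave 1 array in a genotype, so none is given.

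The count of members whose genotypes did not overlap was 3, but 6 with the hybridisation controls as the scale, all higher in SIN1 KO (Thy1, Cd34, both Vim probe sets, Cdh2 and Cdh1). That scale moved the median difference of all tested probe sets to 0.36, against 0.037 as deposited. Leaving out an array gave 7 to 9, which by construction loosens the rule: 8 without wild type 1, 7 without wild type 2, 9 without SIN1 KO 1 and 8 without SIN1 KO 2. The share of all tested probe sets that did not overlap (35.3%) was worked out for the deposited values only. The counts on the hybridisation control scale and without an array therefore have no share to be judged against. Values at or below background numbered 20 over the 13 members and 4 arrays, and 14 with the highest control other than Phe. With the latter, all Cdh1 and Ly6a values were above background, as were Thy1 on SIN1 KO 2 and Pdgfra 1438946_AT on wild type 2.

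Signs turned as follows, none past the adjusted threshold, and the cause was not tested. Cyclic loess gave -0.044 for Pdgfrb, -0.088 for Vim 1450641_AT and -0.058 for Vim 1456292_A_AT, and the hybridisation controls gave 0.24 for Cdh2. Left-out arrays gave log2 differences of -1.77 to 0.71 for Pdgfra 1421917_AT, -0.39 to 0.76 for Pdgfra 1438946_AT, -0.16 to 0.19 for Pdgfrb, -0.048 to 0.54 for Thy1, -0.32 to 6.25 for Ly6a, -0.016 to 0.056 for Vim 1450641_AT, -0.042 to 0.15 for Vim 1456292_A_AT, -0.91 to 1.27 for S100a4 and -0.19 to 0.022 for Cdh2. Twist1, Cd34, Cdh1 and Pdgfra 1421916_AT had 1 sign under every alternative run for them, with Cdh1 down to 0.0069 without SIN1 KO 2.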
